A study of Homo sapiens with 16 samples.

Results

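Integrins of epithelial cells were followed through 6 lines made from SW480, an established human colon adenocarcinoma cell line. The 10 genes were chosen by symbol among the 66023 genes counted, namely the alpha subunits ITGA2, ITGA3, ITGA5, ITGA6 and ITGAV and the beta subunits ITGB1, ITGB4, ITGB5, ITGB6 and ITGB8. All 10 were counted in every sample and passed the filter on low counts in every comparison. RNA-seq was used to compare lines with less or more Ajuba, a LIM domain scaffold protein of cell junctions, with their controls. Parental cells carried no construct (n = 2). The other 5 lines were made with lentiviruses and selected with puromycin. shScrambled carried a non-mammalian control shRNA (n = 2), shAjuba1 an shRNA against the coding region of Ajuba (n = 3), and shAjuba2 an shRNA against a non-coding region (n = 3). Ajuba OE carried a tagged Ajuba cDNA driven by a CMV promoter (n = 3), and Control the same construct with Ajuba removed (n = 3). The study calls its replicates technical, so all p-values here measure only the spread between these samples.

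Each integrin is a pair of an alpha and a beta subunit that spans the plasma membrane, binds matrix or counter-receptors outside the cell and connects to actin or keratin filaments inside it. ITGB1 pairs with many alpha subunits, among them ITGA2 for collagens, ITGA3 and ITGA6 for laminins and ITGA5 for fibronectin. ITGA6 also pairs with ITGB4, the core of hemidesmosomes, which hold colon and other epithelial cells on the basement membrane. ITGAV pairs with ITGB5, ITGB6 or ITGB8 to bind ligands with an RGD sequence, and the pairs with ITGB6 and ITGB8 are known for activating latent TGF-beta. In bulk RNA, fewer cells that express a gene and less RNA per cell cannot be told apart.

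ITGB8, ITGB6 and ITGA2 had the widest ranges between lines of the 10 genes. The genomic sequence just before the first exon of each is shown from hg38, to give the regulatory context of the genes that varied most. Only bases within 250 bases of the start of the main (MANE Select) transcript that no annotated exon covers are printed, 5′ to 3′ on the strand of the gene, and capitals mark the motif matches. The stretches are chr7:20330650-20330701 on the plus strand, chr2:160200314-160200522 on the minus strand and chr5:52989102-52989339 on the plus strand.
ITGB8: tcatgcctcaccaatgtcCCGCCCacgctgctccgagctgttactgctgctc
ITGB6: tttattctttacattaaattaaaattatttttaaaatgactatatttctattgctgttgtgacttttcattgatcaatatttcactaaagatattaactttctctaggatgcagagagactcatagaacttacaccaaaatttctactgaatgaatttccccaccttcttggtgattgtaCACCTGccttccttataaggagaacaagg
ITGA2: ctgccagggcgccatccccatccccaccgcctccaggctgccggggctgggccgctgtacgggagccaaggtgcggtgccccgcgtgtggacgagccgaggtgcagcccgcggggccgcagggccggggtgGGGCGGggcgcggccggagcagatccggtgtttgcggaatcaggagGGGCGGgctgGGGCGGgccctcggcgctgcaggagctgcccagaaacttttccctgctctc
Each motif was searched on both strands, and no motif contains another. The ITGB8 stretch holds 1 GC box, read on the opposite strand, and the ITGA2 stretch holds 3. The ITGB6 stretch holds 1 E-box, also on the opposite strand. GC made up 61.5% of the ITGB8 stretch, 75.6% of the ITGA2 stretch and 30.1% of the ITGB6 stretch. In the full windows of 250 bases, a GC box (GGGCGG) stood before 8 of the 10 genes, against 59.9% of 19061 promoters of the same length. An E-box (CAGGTG) stood before 4 of 10, against 17.3% of all promoters. An ETS motif (CCGGAA) stood before 4, against 19.5%. A TEAD motif (GGAATG) stood before 3, against 9.83%. An AP-1 motif (TGANTCA) stood before 1, against 4.74%. A TATA box (TATAAA) stood before 0, against 9.19%. These matches describe letters and are not binding sites.

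Read counts totalled 30132396 to 69684675 per sample, and levels are given as RPM, the share of that total in reads per 1000000. AJUBA was measured first, as the targeted gene. AJUBA measured 88.8 and 91.6 RPM in Parental, 83.4 and 81.6 RPM in shScrambled, 49.6, 47.3 and 53.5 RPM in shAjuba1, 60.3, 68.6 and 57.1 RPM in shAjuba2, 89.6, 100.5 and 89.4 RPM in Control and 549.7, 462 and 566 RPM in Ajuba OE. No knockdown sample overlapped a control line, and every Ajuba OE sample was above all others. The mean was 50.1 ± 3.12 RPM (SD, n = 3) in shAjuba1 and 62.0 ± 5.93 RPM (SD, n = 3) in shAjuba2 against 82.5 ± 1.26 RPM (SD, n = 2) in shScrambled, and 526 ± 56.1 RPM (SD, n = 3) in Ajuba OE against 93.2 ± 6.34 RPM (SD, n = 3) in Control. The decrease passed the test in shAjuba1 (log2 fold change -0.73, SE 0.08, edgeR adjusted p = 2.19e-05) and not in shAjuba2 (log2 fold change -0.46, SE 0.13, edgeR adjusted p = 0.0773), and the increase passed it in Ajuba OE (log2 fold change 2.56, SE 0.11, edgeR adjusted p = 7.69e-05). The epithelial markers KRT8, KRT18, KRT19, EPCAM, CDH1, CDX2 and VIL1 were present, while KRT20, CDX1, LGALS4 and CDH17 had medians under 1 RPM, and the list of 11 summed to 2902 to 7009 RPM. The fibroblast list of 8 genes summed to 6.34 to 37.8 RPM, mostly from COL1A1 and PDGFRB, and its members DCN and COL3A1 did not exceed 0.112 RPM. Summed leukocyte markers were 3.29 to 7.82 RPM, with medians of 2.39 RPM for LYZ and 1.11 RPM for CD14 and with PTPRC at 0.0645 RPM or less. Summed endothelial markers were 2.28 to 5.45 RPM, with a median of 2.36 RPM for VWF and with CDH5 at 0.0291 RPM or less. The fibroblast sum was lower in Ajuba OE (6.34 to 10.6 RPM) than in Control (15.6 to 24.7 RPM), where the other 3 lists overlapped. In shScrambled the epithelial sum (4065 to 4205 RPM) was below Parental (6092 to 6608 RPM) and shAjuba1 (4998 to 5207 RPM), and overlapped that of shAjuba2 (2902 to 5496 RPM). The fibroblast sum was 22.6 to 22.9 RPM in shScrambled, above Parental (19.2 to 19.8 RPM), below shAjuba2 (25.1 to 37.8 RPM) and overlapping shAjuba1 (18.5 to 22.8 RPM). The leukocyte and endothelial sums were higher in shScrambled (6.08 to 6.67 and 5.07 to 5.45 RPM) than in Parental (4.94 to 5.86 and 2.37 to 2.67 RPM), shAjuba1 (3.32 to 3.62 and 2.28 to 3.09 RPM) and shAjuba2 (3.29 to 4.2 and 2.59 to 3.03 RPM). Their part in the integrin results was not tested. Replicate 2 of shAjuba2, Control and Ajuba OE was the lowest of its line for ITGA6, ITGAV and ITGB1. Leaving it out of shAjuba2 raised the genes called over the whole table against shScrambled from 1713 to 4983, and leaving it out of Control raised those against Parental from 80 to 985. The number did not always rise. In Ajuba OE against Control, leaving it out of Control lowered the genes called from 1147 to 750.

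Compared per length of the main transcript, ITGA3 and ITGB5 had the highest medians over the 16 samples, 83.6 and 83.2 RPM per kb. ITGA6 followed at 66.1, ITGB4 at 51.7, ITGB1 at 43.4 and ITGAV at 22.2 RPM per kb. The fibronectin receptor subunit ITGA5 and the collagen receptor subunit ITGA2 were lower, at 8.24 and 7.31 RPM per kb. ITGB8 was at 1.65 RPM per kb and ITGB6 at 0.499 RPM per kb, so the partners of ITGAV that activate TGF-beta were the scarcest. The sample ranges of ITGA3 (55.1 to 128.3), ITGB5 (56.9 to 101.7) and ITGA6 (39.95 to 83.3 RPM per kb) overlapped widely, and their order differed by line. ITGB5 was first in Parental (98.9 ± 3.93 against 81.3 ± 2.67 RPM per kb for ITGA3, SD, n = 2) and in shScrambled (99.4 ± 1.05 against 82.9 ± 4.41, SD, n = 2), with no overlap between the samples of the 2 genes. ITGA3 was first in shAjuba1 (117.6 ± 10.3 RPM per kb, SD, n = 3), followed by ITGB4 and ITGB5 (61.3 ± 5.86 and 60.1 ± 3.74), which overlapped. ITGA3 and ITGB5 overlapped in shAjuba2 (86.2 ± 1.88 and 84.5 ± 10.0 RPM per kb, SD, n = 3) and in Control (77.6 ± 5.57 and 84.7 ± 4.71). In Ajuba OE, ITGA6 (71.7 ± 7.27 RPM per kb, SD, n = 3) overlapped ITGB5 (66.2 ± 3.49), and both were above ITGA3 (57.2 ± 2.03). With all annotated exons merged as the length, a choice made after seeing the data, ITGA6 was first at 57.6 RPM per kb, followed by ITGB5 at 56.7, ITGB4 at 45.1 and ITGA3 at 41.7. ITGB1 was at 11.1 RPM per kb on that scale, where its length is 14561 bases and not 3735.

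**Figure D1:**
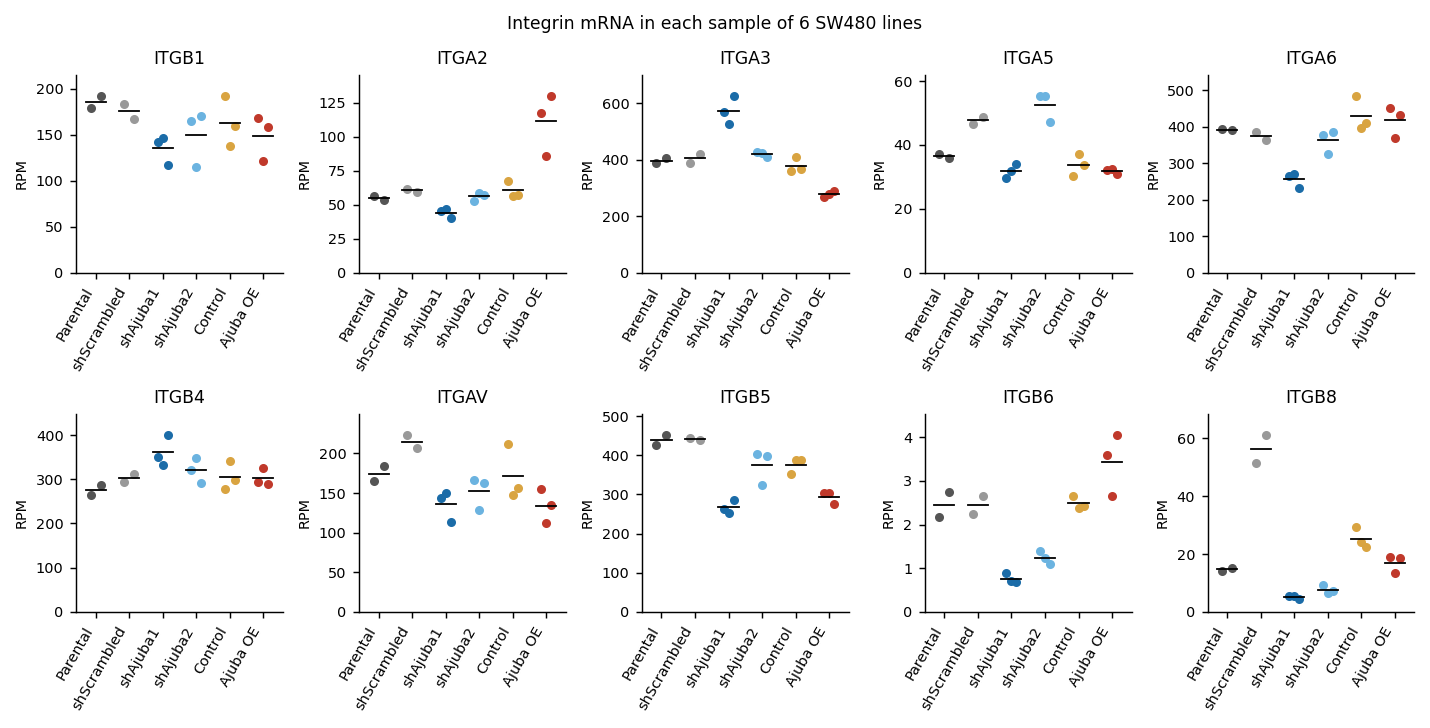
RPM of the 10 integrin genes (vertical axes, each from 0) in every sample of the 6 lines, with points for samples and black bars for means of 2 or 3 samples. ITGB8 stands highest in shScrambled, ITGA2 highest in Ajuba OE, and ITGA3 highest in shAjuba1 and lowest in Ajuba OE.

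In shAjuba1, 8 of the 10 integrins fell against shScrambled, ITGA3 rose, and ITGB4 did not pass the test. Over all genes, 38.4% were called in this comparison, 18.2% higher and 20.2% lower. In shAjuba2, ITGB6 and ITGB8 fell and the other 8 did not pass, where 7.63% of all genes were called, 3.19% higher and 4.44% lower. In Ajuba OE, ITGA2 rose against Control and 9 members did not pass, where 5.43% of all genes were called, 2.39% higher and 3.03% lower. The members had a median log2 fold change of -0.58 (shAjuba1), -0.22 (shAjuba2) and -0.04 (Ajuba OE), while the median of all genes tested was -0.01 in each. The RPM of the line and its control did not overlap for 10, 5 and 4 members in these comparisons, against 60.1%, 47.6% and 25.4% of all genes. In an F test across all 6 lines 8 members differed, all but ITGB1 and ITGB4, and 45.7% of all genes did (edgeR). ITGAV lost its call there without replicate 2 of Parental, either replicate of shScrambled, replicate 1 or 3 of shAjuba1 or replicate 3 of Ajuba OE (edgeR adjusted p = 0.0554 to 0.146). Without replicate 2 of shAjuba2, Control and Ajuba OE, a setting chosen after seeing the data, ITGB1 and ITGB4 differed too (edgeR adjusted p = 0.00747 and 0.014).

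**Figure D2:**
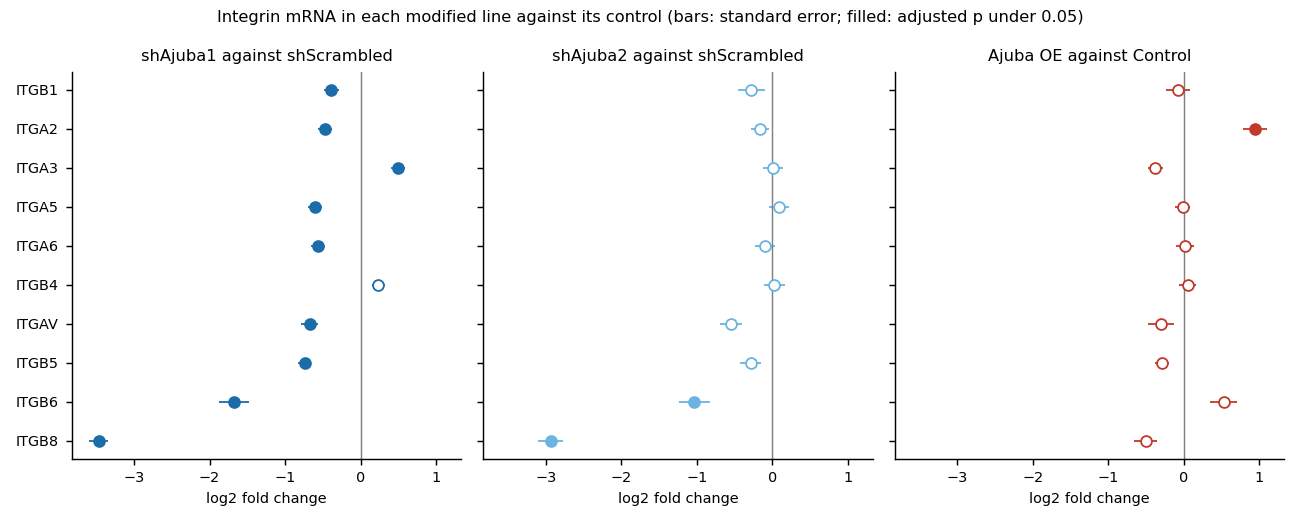
log2 fold change of each integrin in shAjuba1 and shAjuba2 against shScrambled and in Ajuba OE against Control, with standard errors from edgeR and filled points where the adjusted p was under 0.05. ITGB8 and ITGB6 lie farthest to the left in both knockdown lines, and ITGA2 is the filled point in Ajuba OE.

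ITGB8 (ENSG00000105855, chr7:20330702-20415754 of hg38, plus strand), a partner of ITGAV that activates latent TGF-beta, had the widest range between lines, 3.44 on the log2 CPM scale against a median of 0.73 over 23597 genes. ITGB8 measured 14.3 and 15.3 RPM in Parental, 51.3 and 61.1 RPM in shScrambled, 5.34, 5.61 and 4.42 RPM in shAjuba1, 9.14, 6.42 and 7.26 RPM in shAjuba2, 29.2, 24.1 and 22.3 RPM in Control and 18.8, 13.4 and 18.7 RPM in Ajuba OE. Both shScrambled samples were above all others, and all 6 knockdown samples were below all others. ITGB8 was 11.1-fold lower in shAjuba1 (log2 fold change -3.47, SE 0.12, edgeR adjusted p = 3.11e-09) and 7.65-fold lower in shAjuba2 (log2 fold change -2.94, SE 0.17, edgeR adjusted p = 0.000417) than in shScrambled. Those 2 comparisons share the shScrambled samples, in which ITGB8 was itself 3.79-fold higher than in Parental (log2 fold change 1.92, SE 0.09, edgeR adjusted p = 8.72e-13). Against Parental, ITGB8 was 2.95-fold lower in shAjuba1 (log2 fold change -1.56, SE 0.13, edgeR adjusted p = 4.81e-06) and 2.03-fold lower in shAjuba2 (log2 fold change -1.02, SE 0.17, edgeR adjusted p = 0.0199). The direction was thus shared by both controls, while the size depended on the control. With Parental as the control, 2 members rose and 7 fell in shAjuba1, 2 fell in shAjuba2, and 1 rose and 2 fell in Ajuba OE, where 38.1%, 8.14% and 7.15% of all genes were called. Ajuba OE was below Control in every sample without passing the test (log2 fold change -0.51, SE 0.16, edgeR adjusted p = 0.131), and its range overlapped that of Parental.

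**Figure D3:**
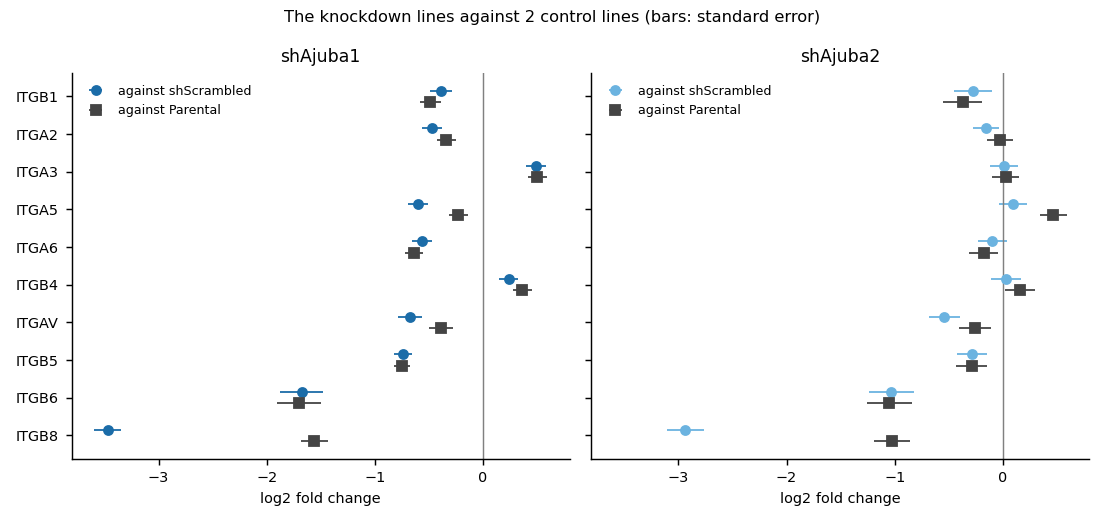
log2 fold change of each integrin in shAjuba1 and shAjuba2 against shScrambled (circles) and against Parental (squares), with standard errors from edgeR. The 2 controls give points far apart for ITGB8 and close together for ITGB6, ITGB5, ITGA3 and ITGA6.

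ITGB6 (ENSG00000115221, chr2:160099667-160200313 of hg38, minus strand), the other partner of ITGAV that activates latent TGF-beta, was the scarcest member per length, with counts of 21 to 251 per sample. ITGB6 measured 2.17 and 2.74 RPM in Parental, 2.25 and 2.64 RPM in shScrambled, 0.900, 0.697 and 0.690 RPM in shAjuba1, 1.40, 1.24 and 1.09 RPM in shAjuba2, 2.65, 2.39 and 2.41 RPM in Control and 3.60, 2.65 and 4.05 RPM in Ajuba OE. The shAjuba1 samples were lowest, the shAjuba2 samples next, and neither overlapped any other line, while Parental, shScrambled and Control overlapped. ITGB6 fell in shAjuba1 (log2 fold change -1.68, SE 0.20, edgeR adjusted p = 3.35e-05) and in shAjuba2 (log2 fold change -1.03, SE 0.20, edgeR adjusted p = 0.026). The call in shAjuba2 was lost when replicate 1 or 2 of shScrambled or replicate 1 or 3 of shAjuba2 was left out, with edgeR adjusted p from 0.0578 to 0.263. Against Parental the log2 fold changes were -1.70 and -1.05 (edgeR adjusted p = 8.19e-05 and 0.0316). In Ajuba OE, 2 of 3 samples were above every other sample and the third lay within Control, and the difference did not pass (log2 fold change 0.53, SE 0.18, edgeR adjusted p = 0.162). A lncRNA of the same strand shares 966 exonic bases with ITGB6 in the annotation, and that lncRNA was not among the genes counted.

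ITGB5 (ENSG00000082781, chr3:124761948-124901418 of hg38, minus strand), the abundant partner of ITGAV and a receptor for vitronectin, differed most clearly in shAjuba1. ITGB5 measured 427 and 451 RPM in Parental, 445 and 438 RPM in shScrambled, 262, 253 and 285 RPM in shAjuba1, 404, 324 and 398 RPM in shAjuba2, 352, 389 and 387 RPM in Control and 303, 302 and 276 RPM in Ajuba OE. The shAjuba1 samples were below both shScrambled samples by more than the spread within either line (log2 fold change -0.74, SE 0.08, edgeR adjusted p = 1.67e-05), 1.67-fold. The shAjuba2 samples were also below those of shScrambled but did not pass (log2 fold change -0.28, SE 0.14, edgeR adjusted p = 0.243). Ajuba OE did not overlap Control and did not pass either (log2 fold change -0.29, SE 0.10, edgeR adjusted p = 0.155), while against Parental it was called (log2 fold change -0.53, SE 0.11, edgeR adjusted p = 0.027).

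ITGAV (ENSG00000138448, chr2:186590010-186680901 of hg38, plus strand), the alpha subunit of these pairs, fell in shAjuba1 (log2 fold change -0.68, SE 0.11, edgeR adjusted p = 0.000417). ITGAV measured 165 and 184 RPM in Parental, 223 and 207 RPM in shScrambled, 144, 149.8 and 114 RPM in shAjuba1, 166, 128 and 163 RPM in shAjuba2, 212, 147 and 157 RPM in Control and 155, 112 and 135 RPM in Ajuba OE. Both shScrambled samples were above every sample of the other lines except replicate 1 of Control. shAjuba2 lay below shScrambled without passing (log2 fold change -0.54, SE 0.14, edgeR adjusted p = 0.0611), and without its replicate 2 it passed (edgeR adjusted p = 0.00357). It also passed with DESeq2 (adjusted p = 0.0321), and in edgeR with every gene of at least 1 count, with all 16 samples and with the replicate block (adjusted p = 0.0231, 0.0479 and 0.0108). Against Parental the log2 fold change was -0.39 in shAjuba1 (edgeR adjusted p = 0.0193) and -0.25 in shAjuba2 (edgeR adjusted p = 0.264). ITGA5 (ENSG00000161638, chr12:54395261-54419266 of hg38, minus strand), the fibronectin receptor subunit, measured 29.6, 31.9 and 34.1 RPM in shAjuba1 and 55.4, 55.3 and 47.1 RPM in shAjuba2, with 46.7 and 48.9 RPM in shScrambled and 37.1 and 36.0 RPM in Parental. The knockdown lines thus lay on opposite sides of Parental. ITGA5 fell in shAjuba1 against shScrambled (log2 fold change -0.60, SE 0.09, edgeR adjusted p = 0.000198), and against Parental, where the control was lower, the difference did not pass (log2 fold change -0.23, SE 0.09, edgeR adjusted p = 0.0615). In shAjuba2 ITGA5 did not pass against shScrambled (log2 fold change 0.09, SE 0.13, edgeR adjusted p = 0.695) or against Parental (log2 fold change 0.46, SE 0.12, edgeR adjusted p = 0.061). The 6 samples of Control and Ajuba OE lay between 30.3 and 37.0 RPM.

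ITGA2 (ENSG00000164171, chr5:52989340-53094779 of hg38, plus strand), the alpha subunit of a collagen receptor, was highest in Ajuba OE and lowest in shAjuba1. ITGA2 measured 56.2 and 53.5 RPM in Parental, 61.9 and 59.4 RPM in shScrambled, 45.6, 46.8 and 40.4 RPM in shAjuba1, 52.7, 58.5 and 57.3 RPM in shAjuba2, 67.6, 56.7 and 57.4 RPM in Control and 118, 85.9 and 130.3 RPM in Ajuba OE. Every Ajuba OE sample was above, and every shAjuba1 sample below, all samples of the other lines. ITGA2 rose 1.92-fold in Ajuba OE (log2 fold change 0.94, SE 0.16, edgeR adjusted p = 0.0157) and fell 1.39-fold in shAjuba1 (log2 fold change -0.47, SE 0.09, edgeR adjusted p = 0.00168). The rise lost its call when replicate 3 of Control or replicate 1 or 3 of Ajuba OE was left out, at log2 fold changes of 0.81 to 0.92 (edgeR adjusted p = 0.0613 to 0.0974). Against Parental its log2 fold change was 1.07, SE 0.18, edgeR adjusted p = 0.0126. shAjuba2 lay just below shScrambled and did not pass (log2 fold change -0.16, SE 0.12, edgeR adjusted p = 0.444).

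ITGA3 (ENSG00000005884, chr17:50055968-50090481 of hg38, plus strand), a laminin receptor subunit of epithelial cells, was highest in shAjuba1 and lowest in Ajuba OE. ITGA3 measured 388 and 407 RPM in Parental, 389.8 and 420.3 RPM in shScrambled, 570.5, 526 and 627 RPM in shAjuba1, 429, 424 and 411 RPM in shAjuba2, 359.8, 411 and 368 RPM in Control and 269, 281 and 289 RPM in Ajuba OE. The shAjuba1 samples were above, and the Ajuba OE samples below, all samples of the other lines. ITGA3 rose 1.40-fold in shAjuba1 (log2 fold change 0.49, SE 0.09, edgeR adjusted p = 0.00121) and had the same value against Parental to within its error (log2 fold change 0.50). In Ajuba OE the test was not passed against Control (log2 fold change -0.38, SE 0.10, edgeR adjusted p = 0.0862) but was against Parental (log2 fold change -0.46, SE 0.11, edgeR adjusted p = 0.0491). It was also passed against Control with DESeq2 (adjusted p = 0.0404), and in edgeR with all 16 samples or with the replicate block (adjusted p = 0.0164 and 0.00104). shAjuba2 overlapped shScrambled (log2 fold change 0.01, SE 0.13, edgeR adjusted p = 0.97).

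**Figure D4:**
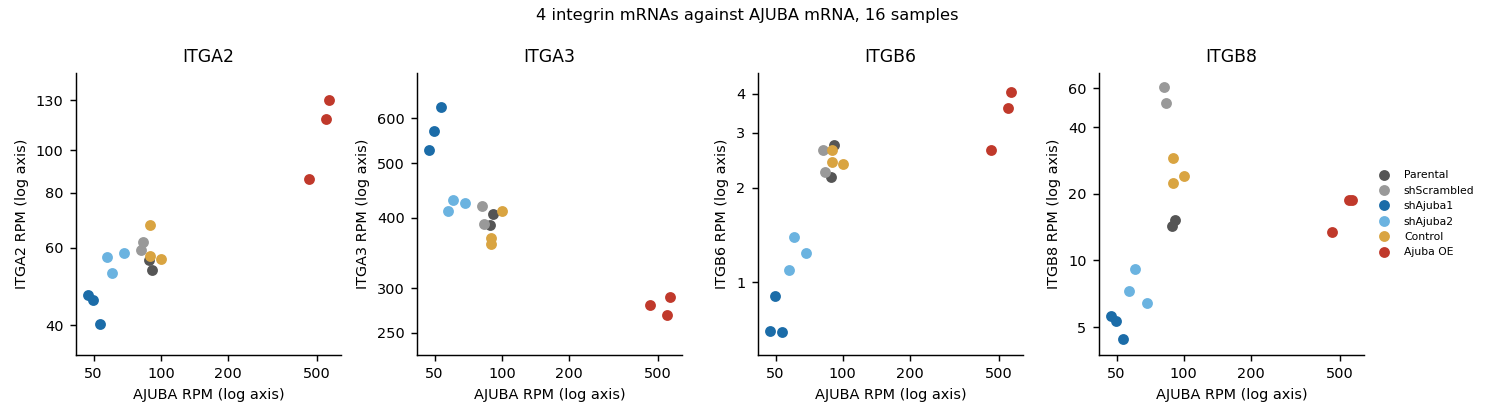
RPM of ITGA2, ITGA3, ITGB6 and ITGB8 (vertical log axes) against RPM of AJUBA (horizontal log axis) in 16 samples, coloured by line. By line, ITGA2 is lowest in shAjuba1, where AJUBA is lowest, and highest in Ajuba OE, and ITGA3 is highest in shAjuba1 and lowest in Ajuba OE. In shAjuba2, ITGA2 overlaps Parental and Control, and ITGA3 overlaps shScrambled. ITGB8 spreads over 14.3 to 61.1 RPM among the 7 Parental, shScrambled and Control samples, whose AJUBA lies between 81.6 and 100.5 RPM.

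ITGA6 (ENSG00000091409, chr2:172427354-172506459 of hg38, plus strand), the laminin receptor subunit shared by ITGB1 and ITGB4, measured 265, 271 and 232 RPM in shAjuba1 and 384 and 364 RPM in shScrambled. Its levels were 393 and 390.1 RPM in Parental, 378, 324 and 385 RPM in shAjuba2, 484, 396 and 410.5 RPM in Control and 451, 369.7 and 431 RPM in Ajuba OE. The shAjuba1 samples were below all others, and ITGA6 fell there (log2 fold change -0.56, SE 0.09, edgeR adjusted p = 0.000417) and not detectably in shAjuba2 or Ajuba OE (log2 fold changes -0.10 and 0.02, edgeR adjusted p = 0.686 and 0.959). ITGB4 (ENSG00000132470, chr17:75721328-75757818 of hg38, plus strand), its partner in hemidesmosomes, lay between 264 and 399.9 RPM over all samples, with 351, 333 and 399.9 RPM in shAjuba1 and 295 and 312 RPM in shScrambled. The groups did not overlap, yet the test was not passed (log2 fold change 0.24, SE 0.09, edgeR adjusted p = 0.0573), while against Parental it was (log2 fold change 0.36, SE 0.09, edgeR adjusted p = 0.00738), as it was against shScrambled without replicate 2 of shAjuba1 (edgeR adjusted p = 0.0403), with every gene of at least 1 count (edgeR adjusted p = 0.0358) and with DESeq2 (adjusted p = 0.0415). The log2 fold changes of the 2 subunits of this receptor had opposite signs in shAjuba1, and the difference between them was not tested. ITGB1 (ENSG00000150093, chr10:32887273-33005792 of hg38, minus strand), the common partner, lay between 115.3 and 192.2 RPM. It fell in shAjuba1 (log2 fold change -0.39, SE 0.10, edgeR adjusted p = 0.00983), a call that was lost without replicate 1 of shScrambled (edgeR adjusted p = 0.155) and with all 16 samples in the fit (log2 fold change -0.37, edgeR adjusted p = 0.146), and did not pass in shAjuba2 or Ajuba OE (log2 fold changes -0.27 and -0.07, edgeR adjusted p = 0.357 and 0.867).

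The mix of subunits was expressed as shares of the summed RPM per kb of the main transcript. ITGA3 made up 60.5% ± 4.05 of the 5 alpha subunits in shAjuba1 (SD, n = 3), 42.1% ± 2.16 in shScrambled (SD, n = 2) and 33.8% ± 2.93 in Ajuba OE (SD, n = 3). ITGA6 made up 22.7% ± 2.27, 32.7% ± 1.34 and 42.2% ± 1.42 in the same lines. ITGA2 was 8.32% ± 1.2 of the alpha sum in Ajuba OE and 2.91% to 4.02% on average elsewhere. Among the 5 beta subunits, ITGB5 was 50.1% ± 0.344 in Parental, 48.6% ± 0.213 in shScrambled, 37.9% ± 1.08 in shAjuba1 and 46.8% ± 1.99 in shAjuba2. ITGB4 was 38.7% ± 2.38 in shAjuba1 and 25.2% ± 1.18 in shScrambled, and ITGB1 stayed between 22.2% and 25.2% in the means of all lines. ITGB8 was at most 3.06% ± 0.396 of the beta sum, in shScrambled, and 0.362% ± 0.0554 in shAjuba1. With merged exons as the length, ITGB1 was 8.85% to 10.4% of the beta sum, and ITGB4 and ITGB5 were 51.3% and 39.3% in shAjuba1. On that scale the mean share of ITGA6 exceeded that of ITGA3 in every line but shAjuba1 (33.7% against 51.4%), while with the main transcript it did so in Ajuba OE alone. These shares are descriptions, since a fall of one subunit raises the share of the rest.

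**Figure D5:**
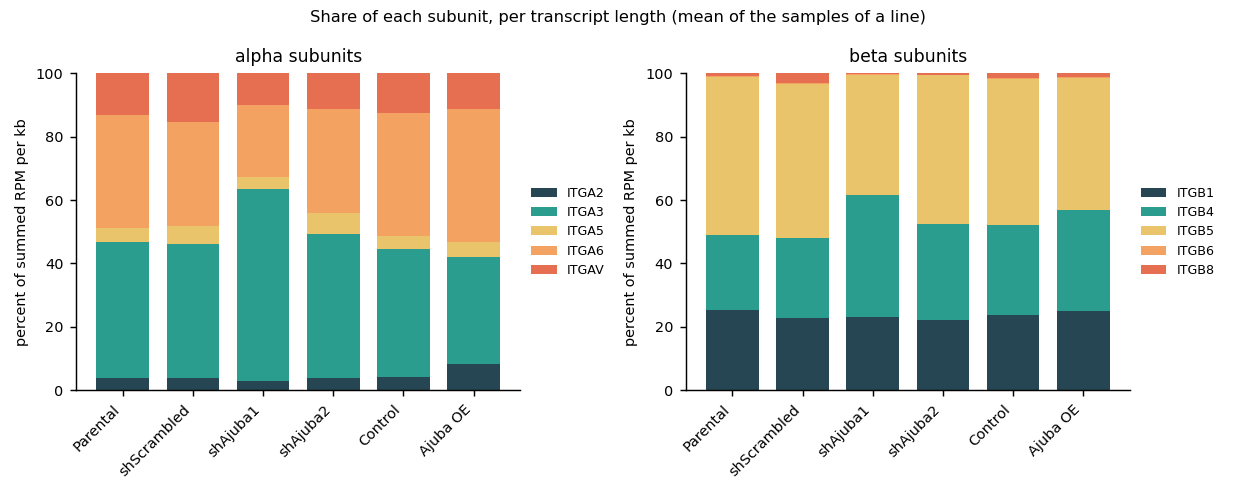
Mean share of each subunit in the summed RPM per kb of transcript (vertical axes, percent) for 5 alpha and 5 beta subunits in the 6 lines. ITGA3 takes 60.5% of the alpha sum in shAjuba1, and ITGB5 and ITGB4 take 37.9% and 38.7% of the beta sum there, shares that depend on the transcript length used.

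The knockdown lines were also compared directly, without shScrambled. In this test 4 of 10 members differed, where 19.6% of all genes did, 9.47% higher and 10.1% lower in shAjuba1. The RPM of the lines did not overlap for 7 members, against 39.7% of all genes. ITGA3 was higher in shAjuba1 than in shAjuba2 (log2 fold change 0.49, SE 0.12, edgeR adjusted p = 0.0181), and ITGA5, ITGA6 and ITGB5 were lower (log2 fold changes -0.68, -0.45 and -0.44, edgeR adjusted p = 0.00348, 0.0327 and 0.0332). ITGA3 lost the call without replicate 1 or 3 of shAjuba1 or replicate 1 of shAjuba2 (edgeR adjusted p = 0.0648 to 0.0832). ITGA6 and ITGB5 lost it without any 1 of the shAjuba1 replicates or without replicate 1 or 3 of shAjuba2 (edgeR adjusted p = 0.0592 to 0.117 and 0.0595 to 0.151), and ITGA5 kept it in all 6 of these fits. ITGB8 and ITGB6, the members that fell in both lines, were lower in every shAjuba1 sample than in any shAjuba2 sample, and the test was not passed (log2 fold changes -0.52 and -0.64, edgeR adjusted p = 0.0573 and 0.0655). With all 16 samples in the fit both passed (edgeR adjusted p = 0.0289 for ITGB8 and 0.0345 for ITGB6), and ITGB8 also passed with library size alone, with every gene of at least 1 count and without replicate 2 of shAjuba2 (edgeR adjusted p = 0.0436, 0.0336 and 0.009995). AJUBA did not pass the test between them (log2 fold change -0.26, SE 0.12, edgeR adjusted p = 0.141).

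The control lines differed from one another in some members. shScrambled exceeded Parental in ITGB8 as given above, in ITGA5 (log2 fold change 0.38, SE 0.08, edgeR adjusted p = 0.000707) and in ITGAV (log2 fold change 0.30, SE 0.08, edgeR adjusted p = 0.0075), 3 of 10 members where 30.7% of all genes were called, 15.0% higher and 15.6% lower. With all 16 samples in the fit, ITGA5 and ITGAV did not pass (edgeR adjusted p = 0.0759 and 0.438). The ITGAV call was lost without replicate 1 of Parental or replicate 1 of shScrambled (edgeR adjusted p = 0.191 and 0.11). Control against Parental gave 0 called members with edgeR, where 0.37% of all genes were called, 0.0508% higher and 0.319% lower. ITGB8 alone had an unadjusted p under 0.05 there (log2 fold change 0.78, SE 0.15, edgeR adjusted p = 0.0828), and it was called by DESeq2, or by edgeR without replicate 2 of Control (edgeR adjusted p = 0.00613). Control was lower than shScrambled in ITGB8 (log2 fold change -1.15, SE 0.15, edgeR adjusted p = 0.00791), 1 of 10 members where 5.8% of all genes were called, 2.15% higher and 3.65% lower, and the call was lost without either shScrambled replicate or replicate 3 of Control (edgeR adjusted p = 0.0542 to 0.11). AJUBA did not differ detectably between Control and shScrambled (log2 fold change 0.19, edgeR adjusted p = 0.368). In the samples of Parental, shScrambled and Control, AJUBA lay between 81.6 and 100.5 RPM and ITGB8 between 14.3 and 61.1 RPM.

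Over the 16 samples, the genes most like ITGB8 in log2 CPM among 19499 were MGAM2, KATNAL1 and BICD1 (Pearson's r = 0.97, 0.96 and 0.95). Those most like ITGB6 were MCTP2, SLC16A10 and PATJ, each at r = 0.98. Between members, ITGA6 and ITGB6 gave r = 0.90 and ITGAV and ITGB1 r = 0.85, while ITGA3 and ITGA6 gave -0.91, ITGB1 and ITGB4 -0.88 and ITGA2 and ITGA3 -0.87. The 16 samples fall into 6 lines and are not independent, so these values are descriptions.

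Of 16 other integrin genes, ITGA7 (187 to 399.7 RPM), ITGA1 (32.1 to 279 RPM) and ITGAE (19.6 to 35.6 RPM) were above 10 RPM in every sample, and ITGA4 had at most 1 count per sample. In shAjuba1, 5 of 12 tested rose and 3 fell, where 38.4% of all genes were called. In shAjuba2, 2 of 12 rose, where 7.63% of all genes were called, and in Ajuba OE 1 of 11 fell, where 5.43% were. DESeq2 called 5, 3 and 2 of these genes in the same comparisons. ITGA1, a collagen receptor subunit that pairs with ITGB1, fell in shAjuba1 and rose in shAjuba2 against the same shScrambled samples. It was 34.8 ± 2.68 RPM in shAjuba1 and 94.6 ± 3.08 RPM in shScrambled (SD, n = 3 and 2 samples, log2 fold change -1.46, edgeR adjusted p = 1.58e-07). In shAjuba2 it was 273.7 ± 8.59 RPM (SD, n = 3), above shScrambled (log2 fold change 1.49, edgeR adjusted p = 0.00133). It was 45.3 ± 4.11 RPM in Ajuba OE and 115 ± 9.79 RPM in Control (SD, n = 3 and 3 samples, log2 fold change -1.29, edgeR adjusted p = 0.000736). The PELO gene lies in the same stretch and shares 499 exonic bases with ITGA1, which makes its count uncertain to that extent. ITGB2, a beta subunit of leukocyte integrins, was 11.3 ± 1.11 RPM in shAjuba1 and 0.488 ± 0.0691 RPM in shScrambled (SD, n = 3 and 2 samples, log2 fold change 4.49, edgeR adjusted p = 7.18e-09), and it rose in shAjuba2 as well (log2 fold change 1.55, edgeR adjusted p = 0.0121). ITGAM, its alpha partner in leukocytes, was 3.33 ± 0.572 RPM in shAjuba1 and 0.427 ± 0.0992 RPM in shScrambled (SD, n = 3 and 2 samples, log2 fold change 2.90, edgeR adjusted p = 1.52e-06), while PTPRC stayed at or below 0.0645 RPM in every sample and the summed leukocyte markers were 3.32 to 3.62 RPM in shAjuba1 and 6.08 to 6.67 RPM in shScrambled. ITGB2 has an antisense gene with counts of 53 to 1143 that shares 303 exonic bases.

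Ligands of these receptors were examined from lists of their genes. For the named genes of all lists, the knockdown lines were set against shScrambled alone. In that line 30.7% of all genes were called against Parental, and how far the sizes depend on the control was not tested. Of 10 RGD ligands tested in each comparison, 2 rose and 5 fell in shAjuba1, 3 fell in shAjuba2, and 2 rose and 4 fell in Ajuba OE. Over all genes, 38.4%, 7.63% and 5.43% were called in these comparisons, which is also the background of the latent TGF-beta counts below. CCN2, a matrix protein that binds ITGAV pairs, fell in both knockdown lines (log2 fold change -0.98, edgeR adjusted p = 1.2e-05 in shAjuba1, and log2 fold change -0.56, edgeR adjusted p = 0.0329 in shAjuba2). NPNT, a basement membrane ligand, was 7.85 ± 0.183 RPM in Ajuba OE and 2.20 ± 0.0781 RPM in Control (SD, n = 3 and 3 samples, log2 fold change 1.90, edgeR adjusted p = 0.000211). It was lower in shAjuba1 and shAjuba2 than in shScrambled (log2 fold changes -3.04 and -2.04, edgeR adjusted p = 3.46e-05 and 0.0087). Levels there were low, at 0.159 ± 0.0814 RPM in shAjuba1, 0.345 ± 0.0371 RPM in shAjuba2 and 1.40 ± 0.430 RPM in shScrambled (SD, n = 3, 3 and 2 samples). Tenascin TNC was 5.32 ± 0.651 RPM in shAjuba2 and 19.8 ± 1.2 RPM in shScrambled (SD, n = 3 and 2 samples, log2 fold change -1.94, edgeR adjusted p = 0.000921). It was 21.8 ± 2.43 RPM in Ajuba OE and 6.38 ± 0.233 RPM in Control (SD, n = 3 and 3 samples, log2 fold change 1.84, edgeR adjusted p = 0.000233). The mean of Control thus lay near that of shAjuba2 and well below that of shScrambled. THBS1 fell in shAjuba1 (log2 fold change -0.78, edgeR adjusted p = 2.36e-05) and CCN1 in Ajuba OE (log2 fold change -1.47, edgeR adjusted p = 0.00115). Of the latent TGF-beta list of 9, in which 8 were tested, 2 rose and 4 fell in shAjuba1, 1 fell in shAjuba2 and 3 fell in Ajuba OE. LTBP2, a latent TGF-beta binding protein, fell in all 3 (log2 fold changes -1.01, -1.0 and -0.79, edgeR adjusted p = 2.16e-06, 0.00573 and 0.0058), and TGFB2, a TGF-beta ligand, fell in shAjuba1 and Ajuba OE (log2 fold changes -0.71 and -1.34, edgeR adjusted p = 0.000292 and 0.00182).

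Laminins rose and fell in shAjuba1, with 5 up and 3 down of 10 tested, while 1 of 11 fell in shAjuba2 and 1 of 9 rose in Ajuba OE. The background of these and the next counts is 38.4%, 7.63% and 5.43% of all genes called in shAjuba1, shAjuba2 and Ajuba OE. LAMA3, a chain of the laminin that ITGA3 and ITGA6 bind, was 111 ± 5.47 RPM in Ajuba OE and 81.3 ± 3.51 RPM in Control (SD, n = 3 and 3 samples, log2 fold change 0.52, edgeR adjusted p = 0.0174), and it fell in shAjuba1 and shAjuba2 (log2 fold changes -0.44 and -0.60, edgeR adjusted p = 0.0016 and 0.0316). LAMB1 fell in shAjuba1 (log2 fold change -0.65, edgeR adjusted p = 2.82e-05). LAMC3 rose there at low levels, with 0.634 ± 0.0857 RPM in shAjuba1 and 0.211 ± 0.0663 RPM in shScrambled (SD, n = 3 and 2 samples, log2 fold change 1.49, edgeR adjusted p = 0.005). In the hemidesmosome list of 7, which also holds LAMA3, 3 fell in shAjuba1, 1 fell in shAjuba2, and 1 rose and 1 fell in Ajuba OE. DST, a plakin that ties ITGB4 to keratin, was 45.8 ± 1.64 RPM in shAjuba1 and 129.6 ± 0.627 RPM in shScrambled (SD, n = 3 and 2 samples, log2 fold change -1.52, edgeR adjusted p = 4.11e-08), and it also fell in Ajuba OE (log2 fold change -0.47, edgeR adjusted p = 0.0317). The control lines differed in these genes. DST was lower in Control (76.7 ± 2.57 RPM, SD, n = 3) than in shScrambled, and LAMA3 was higher in Control than in shScrambled (57.4 ± 4.69 RPM, SD, n = 2). Of the collagens, 4 rose and 4 fell of 9 tested in shAjuba1, 1 of 10 fell in shAjuba2 and 2 of 9 fell in Ajuba OE. COL4A4, COL4A3 and COL4A1, chains of basement membrane collagen, fell in shAjuba1 (log2 fold changes -3.16, -2.82 and -2.19, edgeR adjusted p = 2.09e-08, 4.22e-08 and 2.55e-07). COL4A4 and COL4A3 fell in Ajuba OE as well (log2 fold changes -1.29 and -1.55, edgeR adjusted p = 0.00533 and 0.0039). COL4A1 also fell in shAjuba2 (log2 fold change -1.50, edgeR adjusted p = 0.00659).

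Inside the cell, 8 of 25 activators and adaptors rose and 7 fell in shAjuba1, and 2 rose and 2 fell in Ajuba OE. In shAjuba2, 0 of 25 were called by edgeR, with 11 at an unadjusted p under 0.05 and 4 called by DESeq2. TLN1, the talin that activates integrins, and LIMS1, of the ILK complex, fell in shAjuba1 (log2 fold changes -0.69 and -0.94, edgeR adjusted p = 6.15e-05 and 1.28e-05). TNS4 of the same list rose in shAjuba1 and in Ajuba OE (log2 fold changes 0.67 and 0.62, edgeR adjusted p = 8.95e-05 and 0.0285). FERMT1, a kindlin of epithelial cells that activates integrins, was 126 ± 13.1 RPM in Ajuba OE and 64.7 ± 4.03 RPM in Control (SD, n = 3 and 3 samples, log2 fold change 1.02, edgeR adjusted p = 0.00213). Of 16 adhesion kinases and effectors, 5 rose and 3 fell in shAjuba1, 1 rose and 1 fell in shAjuba2, and 1 rose in Ajuba OE. SRC, a kinase of focal adhesions, rose in both knockdown lines (log2 fold changes 1.19 and 0.79, edgeR adjusted p = 3.56e-06 and 0.00877). PAK1 of the same list fell in both (log2 fold changes -1.32 and -1.38, edgeR adjusted p = 3.27e-06 and 0.0189). NEDD9, a docking protein of focal adhesions, fell in shAjuba1 (log2 fold change -1.32, edgeR adjusted p = 1.68e-07). Of 6 inhibitors, DOK1 fell and TNS1 rose in shAjuba1 (log2 fold changes -0.46 and 0.46, edgeR adjusted p = 0.00201 and 0.00639). In shAjuba2 and Ajuba OE, 0 inhibitors were called by edgeR, with 3 and 1 at an unadjusted p under 0.05 and 2 and 0 called by DESeq2. Of the trafficking genes, 3 of 17 rose and 3 fell in shAjuba1, 1 of 18 rose and 1 fell in shAjuba2, and 1 of 18 fell in Ajuba OE. DAB2, an endocytic adaptor of integrins, rose in both knockdown lines and fell in Ajuba OE (log2 fold changes 0.99, 1.52 and -1.93, edgeR adjusted p = 2.25e-05, 0.00144 and 0.000135). RAB11A of the same list fell in shAjuba1 and shAjuba2 (log2 fold changes -0.41 and -1.64, edgeR adjusted p = 0.00547 and 0.0102). Of 9 membrane partners, 2 rose and 3 fell in shAjuba1 and 1 fell in shAjuba2, and 1 of 8 rose in Ajuba OE. CD82, a tetraspanin that binds integrins, rose in shAjuba1 and in Ajuba OE (log2 fold changes 0.68 and 0.97, edgeR adjusted p = 0.000256 and 0.00219). The shares of all genes called in each comparison, given above, are the background of these counts.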

How the data were processed

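Messenger RNA of 16 samples from 6 lines was sequenced as stranded, paired-end libraries. The authors aligned reads to GRCh38 (hg38) with HISAT2, counted them on exons with featureCounts and deposited raw counts per gene. Tool versions, annotation release and the strand setting are not given in the sources used here. Samples were grouped by the line in their labels.

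RPM is the count divided by the sample's total. Each comparison used only the samples of its 2 lines, with edgeR 4.0.16 (filterByExpr, TMM, two-sided quasi-likelihood test, Benjamini-Hochberg adjusted p under 0.05 over all genes), in R 4.3.3 with limma 3.58.1. The SE was taken as |log2 fold change| over the root of the F statistic. A gene differing among lines used an F test over all 16 samples. log2 CPM used a prior count of 2. DESeq2 1.42.0, library size alone, DESeq2's size factors, every gene with at least 1 count, all 16 samples, a replicate block, Parental as the control and leaving out each sample were alternatives. Gene positions, lengths and promoters came from GENCODE 44 on hg38, which held 56434 of 66023 identifiers and 99.792% of counts. Tables were made with pandas 2.3.3 and figures with matplotlib 3.10.9 in Python 3.11.15. The fits were tested on simulated data.

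The members, lists and tests were chosen with earlier results of these data known. All members are named, and from each list and each of the 3 comparisons with a matched control, up to 3 called genes with the smallest adjusted p whose samples did not overlap were eligible, of which some are given. The 3 members with the widest range between lines were used for likeness, and the result for ITGA2 is not reported here. The lowest counts of a member in a sample were 21 for ITGB6 and 160 for ITGB8, and the effect of depth was not tested.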

Additional observations from a re-analysis of the deposited data

Results flagged for a closer look

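Direct tests between the 2 knockdown lines, whose effects answer the same question, differed for 4 integrins, where 19.6% of all genes were called. ITGA3 was higher in shAjuba1 than in shAjuba2 by a log2 fold change of 0.49, and ITGA5 (-0.68), ITGA6 (-0.45) and ITGB5 (-0.44) were lower, all with an edgeR adjusted p under 0.05. The samples of the 2 lines did not overlap in any of the 4, nor in 39.7% of all genes. Only ITGA5 kept the call under every alternative. ITGA3, ITGA6 and ITGB5 lost it in some fits without 1 sample and with the replicate block (edgeR adjusted p = 0.0623, 0.0904 and 0.0772 with the block). AJUBA was 49.6, 47.3 and 53.5 RPM in shAjuba1 and 60.3, 68.6 and 57.1 RPM in shAjuba2, also without overlap, and its part in the 4 differences was not tested.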

How the results depend on the processing

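Of 1040 values of single members under the alternatives, those of the F test among the 6 lines included, 966 kept their side of the threshold, 35 gained and 39 lost the call, 55 changed sign while called under neither setting, and 0 changed sign otherwise. Members called in Ajuba OE against Control were 1 in the two-line fit, 2 with DESeq2, 2 with all 16 samples and 3 with Parental as the control, and between 0 and 1 without 1 sample. In shAjuba1 against shAjuba2 they were 4, 5 with library size alone or with every gene of at least 1 count, 6 with all 16 samples, and 1 to 5 without 1 sample. In shAjuba2 against shScrambled they were 2, and 3 with DESeq2, with every gene of at least 1 count and with all 16 samples (ITGAV added), and 1 to 3 without 1 sample. In shAjuba1 against shScrambled they were 9, 10 with DESeq2 or with every gene of at least 1 count (ITGB4 added), 8 with all 16 samples (ITGB1 lost), and 8 to 10 without 1 sample. In shScrambled against Parental they were 3, and 1 with all 16 samples (ITGA5 and ITGAV lost). In Control against Parental they were 0, and 1 with DESeq2, with every gene of at least 1 count and with all 16 samples, and 0 to 1 without 1 sample. In Control against shScrambled they were 1, and 2 with DESeq2's size factors, with DESeq2, with every gene of at least 1 count and with all 16 samples, and 0 to 2 without 1 sample. The cause of these moves was not tested.

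No label says that a replicate number marks a shared batch, and the 2 comparisons with 3 pairs each had a pair whose deviations correlated at 0.1 or less, so the numbers were not taken to pair the samples. Correlations of same-numbered samples ran from -0.049 to 0.505 in Ajuba OE against Control and from -0.028 to 0.029 in shAjuba1 against shAjuba2, where 2 and 1 of 6 samples correlated best with their own number. In the comparisons with only 2 numbers shared, they ran from 0.187 to 0.229 in Control against shScrambled (4 of 5 samples closest to their own number), from 0.069 to 0.188 in shAjuba2 against shScrambled (3 of 5), from -0.063 to 0.053 in shAjuba1 against shScrambled (1 of 5) and from -0.131 to -0.1003 in Control against Parental (0 of 5), and shScrambled against Parental gave -0.059 (0 of 4). With the replicate number as a block, 6 members were called in Ajuba OE against Control (ITGA2, ITGA3, ITGAV, ITGB5, ITGB6 and ITGB8), 3 in shAjuba2 against shScrambled (ITGAV added, edgeR adjusted p = 0.0108), 1 in shAjuba1 against shAjuba2 (ITGA5) and 1 in Control against Parental (ITGB8).

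Over all genes, calls in shAjuba1 against shScrambled went from 8103 to 4711 and 5013 without replicate 1 or 2 of shScrambled. In shAjuba2 against shScrambled they went from 1713 to 3210 with every gene of at least 1 count, 3672 with all 16 samples, 5377 with the block, and 182 to 4983 without 1 sample. In Ajuba OE against Control they went from 1147 to 2386 with all 16 samples, 5140 with the block, and as low as 412 without 1 sample. In shAjuba1 against shAjuba2 they went from 4232 to as low as 2177 without 1 sample. In shScrambled against Parental they went from 6526 to 1696 with all 16 samples and as low as 3010 without 1 sample. In Control against Parental they went from 80 to 469 with DESeq2, 1947 with every gene of at least 1 count, 530 with all 16 samples, 318 with the block, and 14 to 985 without 1 sample. In Control against shScrambled they went from 1272 to 2661 with every gene of at least 1 count, 2066 with all 16 samples, and 129 to 3669 without 1 sample.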
